A study of Mus musculus with 2 samples.

Results

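Chromatin accessibility was examined around the 7 genes of the EGR and NR4A families, Egr1, Egr2, Egr3, Egr4, Nr4a1, Nr4a2 and Nr4a3, out of 21851 protein-coding genes of the mouse annotation. The genes were taken by family name, and every open region of either library within the gene body or 50 kb to each side was assigned to the gene. The samples were T-helper 2 (Th2) primary cells of strain C57BL/6NJ, profiled by ATAC-seq, in which a transposase cuts and tags accessible DNA. There was 1 group with 2 biological replicates and no control, treatment or second cell type. The labels give both replicates the same donor record and separate biosamples, and state neither sex nor age. Whether they were separate animals is not stated, and differences between them may be technical. With 1 group no test between conditions was possible, and the 7 genes are described beside all protein-coding genes.

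EGR proteins are zinc finger transcription factors and NR4A proteins are orphan nuclear receptors. Both families are immediate early genes, transcribed within minutes of antigen receptor or growth factor signals without new protein synthesis. In T cells Egr2 and Egr3 are known for restraining activation and for roles in anergy, Egr1 for early responses to the antigen receptor, and the NR4A genes for roles in tolerance, regulatory T cells and exhaustion. Nr4a1, also called Nur77, is widely used as a reporter of antigen receptor signalling.

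The lists held 51557 regions in replicate 1 and 60891 in replicate 2, and 44058 joined regions of the main chromosomes had at least 1 region from each. Each region carries the authors' fold enrichment, the count at its summit over the local background. The count itself, called pileup here, and the background were recovered from the fold and its p-value. The median ratio of replicate 2 to replicate 1 over all shared regions was 1.11 for fold and 1.36 for pileup. The T cell markers, genes such as Cd3e and Cd4, had a promoter region in both replicates at 7 of 7 genes, and the Th2 markers, among them Gata3 and the Th2 cytokine genes, at 6 of 8 (Il1rl1 and Ptgdr2 had none). Markers of CD8 T and NK cells, B cells, myeloid cells, and mast cells and basophils had one at 2 of 17 genes, and markers of other helper subsets at 2 of 5.

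Upstream sequences of 4 of the genes are shown because they carry the recognition letters discussed here. They come from RefSeq (GRCm38.p6), read 5′ to 3′ on the strand of the gene. Capitals mark every match to a searched motif that lies wholly within the stretch. An NF-kB match across the Nr4a1 start is therefore not marked. Of the 7 genes, 5 were matched in the RefSeq promoter table, namely Egr2, Egr4, Nr4a1, Nr4a2 and Nr4a3. The Egr2 stretch of 30 bases runs from base 82 to base 53 before the start site on chr10:67537787-67537816 (plus strand), and its capitals are a serum response element (CArG box), the site of serum response factor.
Egr2 serum response element: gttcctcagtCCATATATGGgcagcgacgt
The Egr4 stretch covers the 250 bases before its start on chr6:85513590-85513839 (minus strand), and its capitals are a pair of matches to the NF-kB motif.
Egr4 promoter: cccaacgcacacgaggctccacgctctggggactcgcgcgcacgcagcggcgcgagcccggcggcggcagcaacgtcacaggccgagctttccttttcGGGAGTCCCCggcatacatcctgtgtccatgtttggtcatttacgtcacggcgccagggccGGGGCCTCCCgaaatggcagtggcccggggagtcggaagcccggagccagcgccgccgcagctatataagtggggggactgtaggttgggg
The Nr4a1 stretch covers the 250 bases before its inner start on chr15:101266596-101266845 (plus strand), and the Nr4a2 stretch runs from base 104 to base 4 before its outermost start on chr2:57124007-57124107 (minus strand). In both, the capitals are a match to the EGR motif.
Nr4a1 promoter: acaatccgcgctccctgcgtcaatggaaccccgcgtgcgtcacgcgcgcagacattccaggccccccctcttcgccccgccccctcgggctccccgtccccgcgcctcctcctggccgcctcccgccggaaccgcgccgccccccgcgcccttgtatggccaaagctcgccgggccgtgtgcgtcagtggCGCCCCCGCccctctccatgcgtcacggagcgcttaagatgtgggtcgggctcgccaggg
Nr4a2 promoter: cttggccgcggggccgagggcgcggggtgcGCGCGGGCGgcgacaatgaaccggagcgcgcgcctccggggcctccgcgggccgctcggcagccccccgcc

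Windows of 200 bases centred midway between the summits of the replicates are shown for 3 distal regions, because they are the strongest distal regions, by mean fold, that lie nearest to the start of Nr4a1, Nr4a3 and Egr2. They are read on the plus strand. The Nr4a1 window, 7.8 kb upstream of the outer start, is chr15:101246360-101246559 and its capitals are an EGR match.
Nr4a1 distal window: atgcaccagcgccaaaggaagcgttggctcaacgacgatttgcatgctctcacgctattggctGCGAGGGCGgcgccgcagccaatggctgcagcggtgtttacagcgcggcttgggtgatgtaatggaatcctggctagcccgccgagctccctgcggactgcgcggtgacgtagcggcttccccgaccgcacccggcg
The Nr4a3 window, 32.9 kb upstream, is chr4:48012186-48012385, and its capitals are an AP-1 match and an NF-kB match that overlaps an NFAT match.
Nr4a3 distal window: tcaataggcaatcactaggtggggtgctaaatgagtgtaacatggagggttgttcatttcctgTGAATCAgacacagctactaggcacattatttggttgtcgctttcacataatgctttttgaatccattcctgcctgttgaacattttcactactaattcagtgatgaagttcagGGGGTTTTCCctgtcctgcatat
The Egr2 window, 8.0 kb upstream, is chr10:67529723-67529922, and its capitals are an NFAT match. It lies between the summits of the replicates, which fall 9 bases before and 10 bases after it.
Egr2 distal window: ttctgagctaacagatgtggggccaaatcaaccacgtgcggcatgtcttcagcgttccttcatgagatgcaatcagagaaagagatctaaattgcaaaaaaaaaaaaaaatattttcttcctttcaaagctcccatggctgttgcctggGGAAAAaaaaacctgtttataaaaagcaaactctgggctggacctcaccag

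The 7 windows held 70 joined regions, of which 57 were found in both replicates, 3 in replicate 1 only and 10 in replicate 2 only. Of the shared regions, 11 were promoter regions of the 7 genes (overlapping 1 kb to either side of a coding start), 7 were promoter regions of neighbouring genes (Reep2, Ado, Bin3, Fbxo41, Grasp, Atg101 and Stx17) and 39 were distal. Of the distal regions, 32 lay outside protein-coding genes, 5 in introns and 2 in exons, and the summits of 13 fell within RefSeq genes that are not protein-coding. The start of the EGR or NR4A gene was the nearest coding start for 33 of the 39, and 27 lay upstream of it. Nearness does not show which gene a region acts on.

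**Figure D1:**
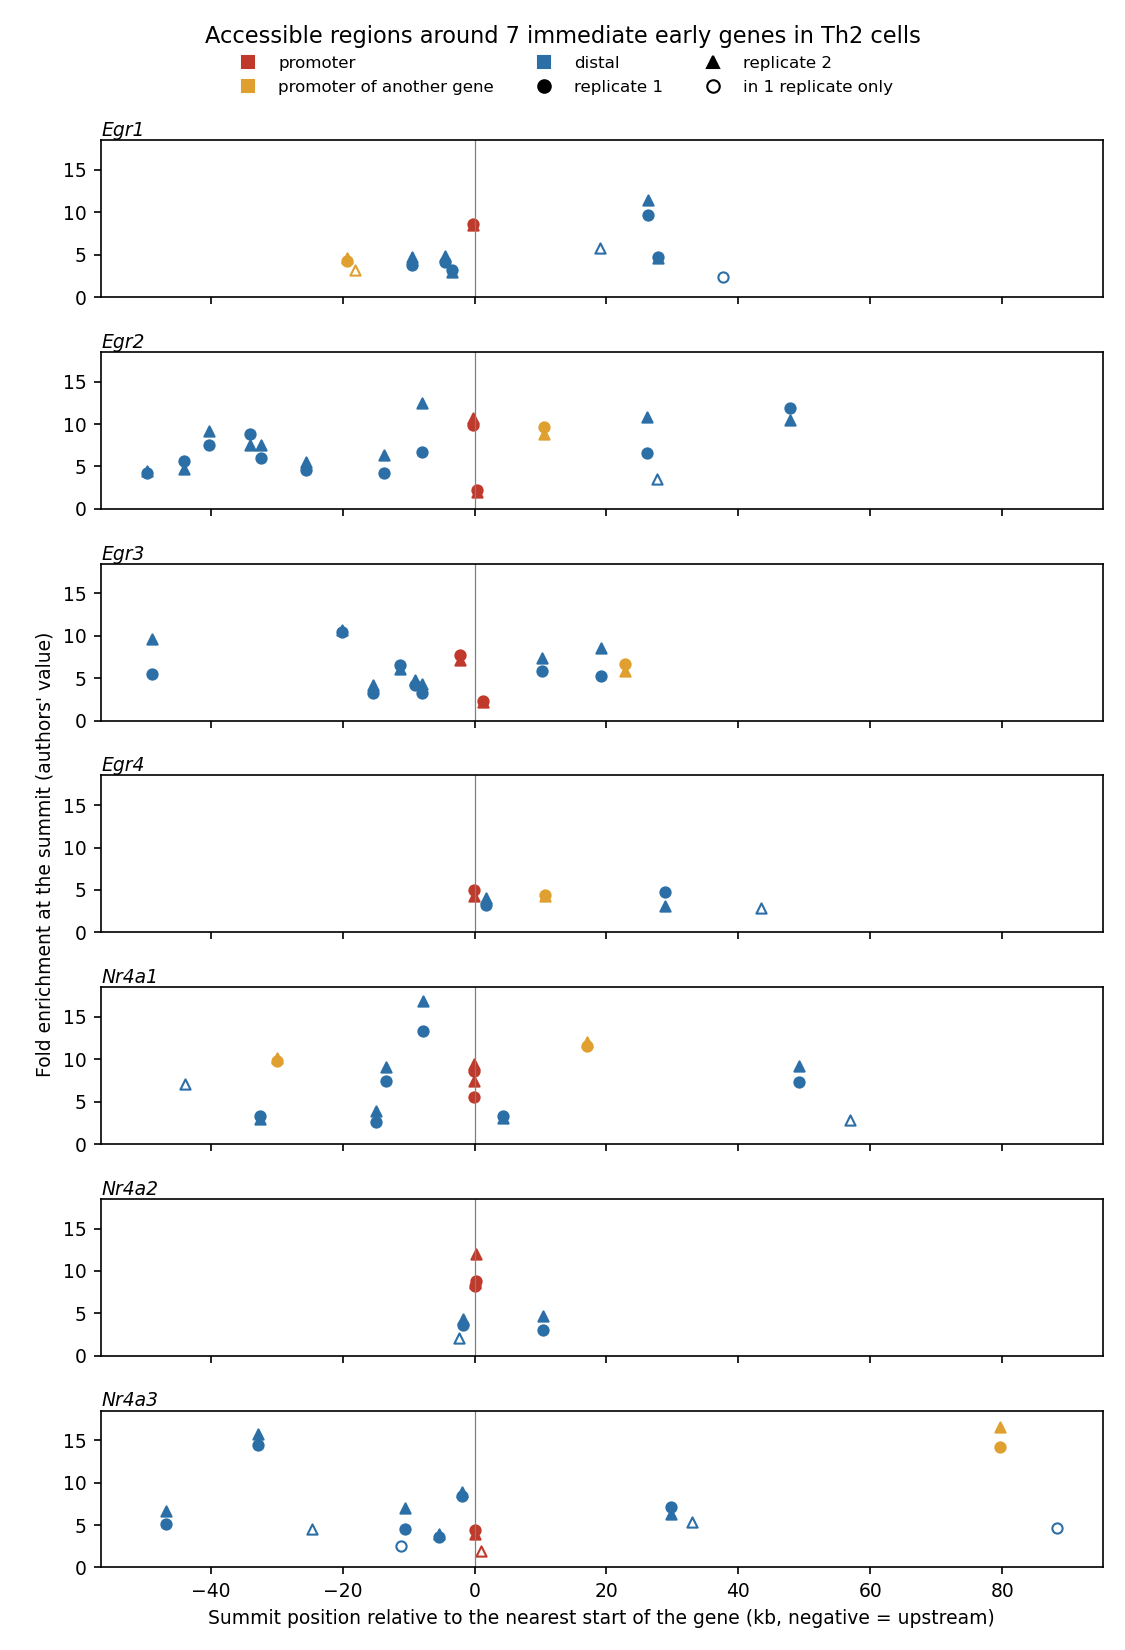
Fold enrichment (authors' value, y axis) of every region in the windows against the distance of its summit from the nearest start of the gene in kb (x axis), with 1 panel per gene, circles for replicate 1, triangles for replicate 2 and open symbols for regions in 1 replicate only. Egr2, Egr3, Nr4a1 and Nr4a3 have many distal regions, whereas Egr4 and Nr4a2 have 2 shared distal regions each, none above a fold of 5 in either replicate.

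All 7 genes had a promoter region in both replicates, as did 12750 of all 21851 protein-coding genes (58.3%). The regions differed in shape and strength within each family. Egr2 and Egr3 had the widest, Egr1 the highest pileup, and Egr4 the narrowest with the lowest pileup. The lowest fold was that of Nr4a3.

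Egr1 lies on chr18:34859823-34864984, plus strand. Its promoter region of 1849 bp began just inside the outer annotated start and covered the inner start, with the summit 348 bp upstream of the inner start in exon 1 (untranslated part). The pileup was 235 in replicate 1 (95% Poisson interval 206 to 267) and 313 in replicate 2 (279 to 350), at the 98.1 and 97.7 percentiles of all promoter regions. The local background was also high, 26.4 and 35.9, at the 99.3 and 99.5 percentiles. The fold enrichment, which divides one by the other, was 8.60 and 8.51, and its mean stood at the 34.4 percentile. By count, Egr1 had the highest promoter of the 7 in both replicates. Its interval lay above that of Egr2, the next, in replicate 1 and just overlapped it in replicate 2.

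Egr2 lies on chr10:67535475-67542188, plus strand, and encodes the EGR factor best known in T cell anergy. Its main promoter region spanned 2848 bp, at the 99.2 percentile of widths. In replicate 1 it was called as 2 regions, 1386 bp with fold 3.54 and 912 bp with fold 9.86, and in replicate 2 as 1 region with fold 10.7. The summit lay 330 bp upstream of the start, with a pileup of 167 (143 to 194) and 247 (217 to 280), and the serum response element shown above lies inside the region. A second promoter region of 306 bp in intron 1 had fold 2.21 and 1.96.

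Egr3, on chr14:70077203-70082614, plus strand, had the widest promoter region of the 7 at 3117 bp (99.6 percentile). Replicate 1 again split it, into 1467 bp with fold 7.77 and 1006 bp with fold 4.72, and replicate 2 called it whole with fold 7.14. Only the second piece covered the start sites, and the main summit, with a pileup of 125 and 155, lay 2.2 kb upstream. Where a shared region had to overlap by 50% of both, the wide regions of Egr2 and Egr3 were no longer joined, and the strongest promoter region was then the intronic one, with fold 2.21 and 1.96 for Egr2 and 2.25 and 2.20 for Egr3.

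Egr4 lies on chr6:85511121-85513589, minus strand. Its promoter region was 486 bp wide (2.7 percentile of widths), with a pileup of 21 (13 to 32.1) and 18 (10.7 to 28.4) over a background of 3.46 and 3.43. The fold was 4.93 and 4.29 (7.8 percentile). Egr4 was the only gene of the 7 left without a promoter region when a −log10 q of at least 10 was required. The weak intronic promoter regions of Egr2 and Egr3 were also below that cut, but both genes kept their wide promoter region.

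Nr4a1, on chr15:101254269-101274795, plus strand, was open at both of its annotated starts. The inner start had a region of 1541 bp with a pileup of 72 (56.3 to 90.7) and 94 (76 to 115) and a fold of 8.67 and 9.48, and contains the sequence shown above. The outer start had a region of 1233 bp with a pileup of 39 and 73 and a fold of 5.57 and 7.47. The inner region was higher in both replicates, and the pileup intervals of the 2 regions overlapped in replicate 2 but not in replicate 1.

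Nr4a2, on chr2:57106830-57124003, minus strand, likewise had regions at 2 of its 3 annotated starts. At the outermost start the region of 1370 bp had a fold of 8.78 and 12.0 and a pileup of 65 and 104. At the middle start the region of 1600 bp had a fold of 8.20 and 8.64 and a pileup of 96 and 130. The order of the 2 regions thus depended on the scale: the outer one was higher by fold and the middle one by pileup, in both replicates.

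Nr4a3, on chr4:48045153-48086447, plus strand, had a promoter region of 1103 bp with its summit 27 bp upstream of the start. Its fold, 4.45 and 3.94, was the lowest of the 7 by the mean and stood at the 5.5 percentile of promoter regions. Its pileup, 93 (75.1 to 113.9) and 111 (91.3 to 133.7), was near the middle, at the 56.8 and 46.9 percentiles. The local background, 20.1 and 27.4, was at the 97.3 and 97.9 percentiles. A strong region with its summit 1.9 kb upstream lies in the same stretch.

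By mean fold the promoters ranked Nr4a2, Egr2, Nr4a1, Egr1, Egr3, Egr4 and Nr4a3. The ranges of the 2 replicates overlapped between Nr4a2 and Egr2 and between Egr4 and Nr4a3, and did not overlap between the other neighbours in this order, although Nr4a1 (lowest 8.67) and Egr1 (highest 8.60) nearly touched. For genes with several promoter regions this ranking and the counts here use the region highest by mean fold. By the pileup of those regions Egr1, Egr2 and Egr3 came first in both replicates, Egr4 last, and Nr4a1, Nr4a2 and Nr4a3 between. For Egr3 the values of both replicates are at a summit 2.2 kb upstream, in replicate 1 in a piece that does not cover the starts. The replicate 1 piece over its starts had a pileup of 77, below the 93 of Nr4a3. Its fold of 4.72 was below the 4.93 of Egr4 in that replicate. The region at the middle start of Nr4a2, not used here, had a pileup of 96 and 130, above the 93 and 111 of Nr4a3. Of the 7 promoters, 5 had a fold below the median of all promoter regions in both replicates (medians 9.64 and 10.9), while 3, Egr1, Egr2 and Egr3, had a pileup above the median in both (medians 83 and 117). For Egr3 in replicate 1 this holds for the upstream piece, and the piece over the starts, with 77, was below the median. In replicate 2 the Egr3 pileup of 155 is also at the upstream summit, and no separate value over the starts was listed. The local background of the 7 regions used was above its median in both replicates (7.56 and 9.58) for 4, Egr1, Egr2, Egr3 and Nr4a3. The middle-start region of Nr4a2 was also above both medians of pileup and of background (10.8 and 14.2).

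**Figure D2:**
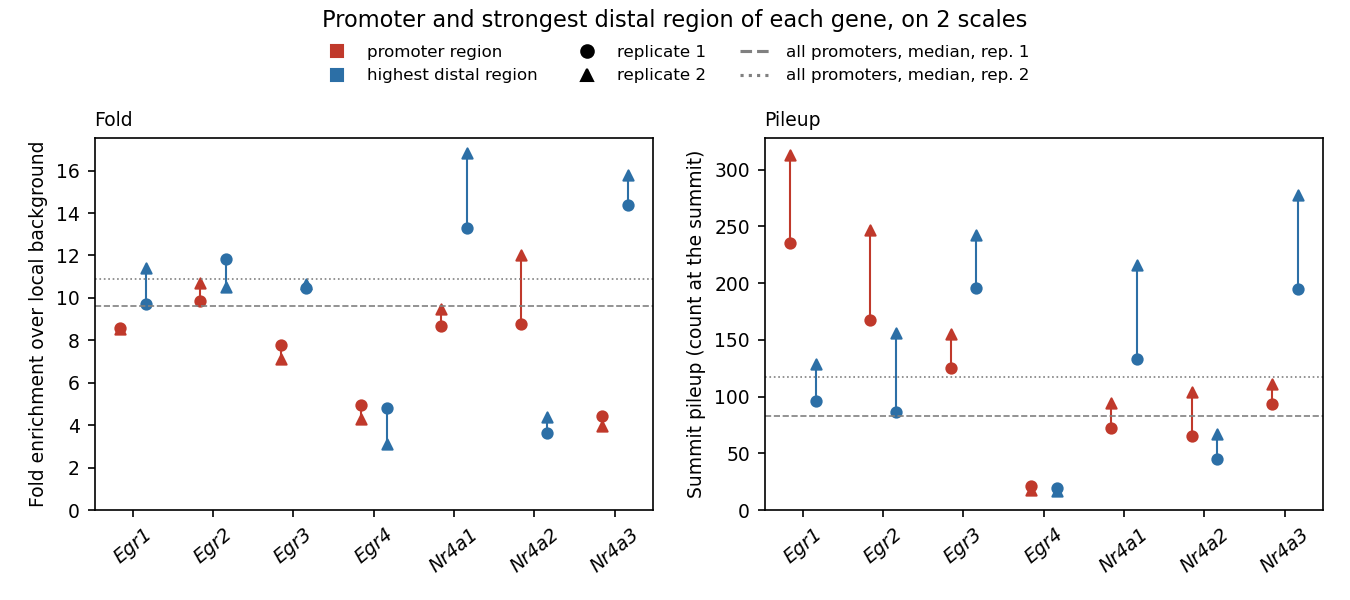
Fold enrichment (left) and summit pileup (right) of the promoter region highest by mean fold (red) and of the highest distal region (blue) of each gene, with a circle for replicate 1, a triangle for replicate 2 and grey lines for the median of all promoter regions. The fold shown for the distal region is of the region highest by mean fold, and the pileup is the highest in each replicate, so the 2 panels can show different regions. Egr1 has the highest promoter pileup but a fold below both medians, and Nr4a3 has the lowest promoter folds beside distal folds of 14.4 and 15.8.

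The strongest distal region exceeded the promoter region by fold in both replicates at 4 of the 7 genes, Egr1, Egr3, Nr4a1 and Nr4a3, against 4072 of 12750 genes with a promoter region (31.9%). By pileup this held at 3, Egr3, Nr4a1 and Nr4a3, against 28.4% of those genes, and at Egr1 the highest distal pileup was 0.41 times that of the promoter in both replicates. The 2 counts follow different rules: the fold is of the distal region highest by mean fold, and the pileup is the highest distal value in each replicate. At Egr2 the highest distal fold of each replicate, 11.9 and 12.5, also exceeded the promoter, 9.86 and 10.7. These are different regions, so Egr2 is not counted by fold. With so few genes these counts do not set the families apart from other genes.

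Nr4a3 had the largest contrast by fold. The region on chr4:48011924-48012688, 32.9 kb upstream and outside any protein-coding gene, had a pileup of 134 (112 to 159) and 177 (152 to 205) over a background of 8.38 and 10.3. Its fold was 14.4 and 15.8, which was 3.23 and 4.00 times that of the promoter, and its mean was at the 97.5 percentile of all shared regions. By pileup the contrast was smaller. The promoter had 93 (75.1 to 113.9) and 111 (91.3 to 133.7), over a background of 20.1 and 27.4. The pileup intervals of the 2 regions overlapped in replicate 1 but not in replicate 2. Closer to the gene, a region of 1000 bp with its summit 1.9 kb upstream had a pileup of 195 and 278 and a fold of 8.44 and 8.96. In replicate 2 this was the highest distal pileup of the 7 windows, and in replicate 1 it was next to the 196 of a region at Egr3. Between them, regions at 10.6 and 5.4 kb upstream were weaker, with folds of 4.60 and 7.03 and of 3.56 and 3.96. Inside the gene, a region in intron 7, 29.8 kb downstream of the start, had fold 7.18 and 6.36.

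At Nr4a1 the strongest region was 7.8 kb upstream of the outer start, on chr15:101246064-101247342. It had a pileup of 133 and 216 and a fold of 13.3 and 16.9, 1.53 and 1.78 times that of the inner promoter. Its window of 200 bases, shown above, held 65.0% G and C and 23 CpG pairs, against 41.5% and 1 CpG in the Nr4a3 window and 41.5% and 3 in the Egr2 window. A second region 13.4 kb upstream had fold 7.47 and 9.08, and the 4 other distal regions had folds from 2.61 to 9.23.

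At Egr3 the strongest region was 20.1 kb upstream, in intron 6 of Pebp4, on chr14:70056076-70057765. Its pileup of 196 (170 to 225) and 242 (213 to 275) was higher than that of the Egr3 promoter region, 125 and 155, with intervals that did not overlap. Those promoter values are at a summit 2.2 kb upstream of the starts in both replicates. The fold of the distal region was 10.5 and 10.6. Between this region and the gene lay 4 more, at 15.4, 11.3, 9.1 and 7.9 kb upstream, with folds from 3.20 to 6.57.

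Egr2 had the most distal regions of the 7, with 10, of which 8 formed a series upstream from 8.0 to 49.7 kb. Of these, 6 had their summit inside Gm32255, a long noncoding gene in RefSeq. The region 8.0 kb upstream had fold 6.66 in replicate 1 and 12.5 in replicate 2, and pileup 56 (42.3 to 72.7) and 156 (133 to 182). Its fold ratio of 1.88 was the largest between replicates of any shared region in the windows, above the 95th percentile of 1.64 over all shared regions. Also above it were regions 48.9 kb upstream of Egr3 (1.75) and 26.1 kb downstream of Egr2 (1.65). A few of 57 regions are expected above such a percentile. The Egr2 distal region highest by mean fold, 11.9 and 10.5, was 47.8 kb downstream, with the start of Ado as the nearest coding start.

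Egr1 had 5 distal regions. The pair 26.3 and 27.8 kb downstream had folds of 9.69 and 11.4 and of 4.70 and 4.65, and the 3 upstream, at 3.4, 4.5 and 9.5 kb, had folds from 3.01 to 4.83. The upstream regions at 3.4 and 4.5 kb nevertheless had pileups of 96 and 123 and of 80 and 121, over backgrounds above 18 in replicate 1.

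Egr4 and Nr4a2 had the least distal accessibility. At Egr4 the 2 distal regions lay in coding exons, exon 2 of Egr4 itself and exon 2 of Fbxo41, with pileups of 13 to 19 in both replicates. At Nr4a2 a region in intron 1 had fold 3.65 and 4.38, and a region 10.4 kb downstream of the nearest start had fold 3.08 and 4.74. No other shared distal region was listed within 50 kb of either gene, and at these depths weaker sites would not be listed.

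Beside all protein-coding genes, 5 of the 7 had more distal regions than the median of 2. Egr2 stood at the 96.5 percentile, Egr3 with 8 at the 93.2, Nr4a1 and Nr4a3 with 6 each at the 85.9, Egr1 with 5 at the 80.0, and Egr4 and Nr4a2 with 2 each at the 49.4. Over all genes the 75th percentile was 4 and the 90th was 7. These ranks include genes without a promoter region, whereas all 7 genes had one. Ranks among the 12750 genes with one are not given for distal regions. Per 100 kb of window, which allows for gene length, the order began with Egr2 at 9.37, Egr3 at 7.59 and Nr4a1 at 4.98. The EGR windows held 25 distal regions over 4 genes and the NR4A windows 14 over 3. The distal regions were of ordinary strength: their median fold was 5.13 and 6.31, against 5.51 and 6.30 over all 31520 distal shared regions, and their median width was 672 bp against 619 bp.

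**Figure D3:**
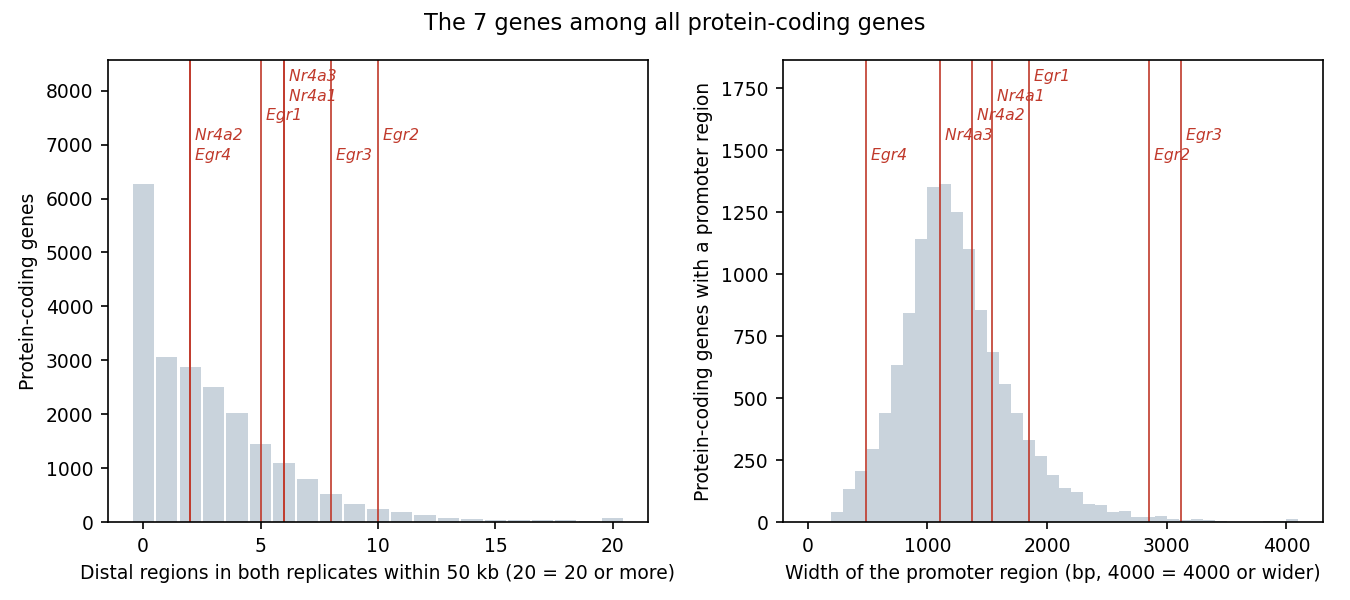
Number of protein-coding genes (y axes) by the number of shared distal regions within 50 kb (left) and by the width of the promoter region in bp (right), with red lines for the 7 genes. Egr2 and Egr3 lie far to the right in both panels, Egr4 and Nr4a2 stand at the median of 2 distal regions, and Egr4 has a promoter region of 486 bp.

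Of 63 regions of replicate 1 in the windows, 60 (95.2%, exact 95% interval 86.7 to 99.0%) overlapped a region of replicate 2, and of 67 regions of replicate 2, 57 (85.1%, 74.3 to 92.6%) overlapped one of replicate 1. The intervals treat regions as independent, although they lie in only 7 windows. On the main chromosomes 51458 and 60784 regions gave 44058 shared joined regions. The same shares over all regions are not given here, so those of the windows are not set apart. The fold ratio of replicate 2 to replicate 1 had a median of 1.10 and ranged from 0.65 at the Fbxo41 exon in the Egr4 window to 1.88 at Egr2. The 13 regions found in 1 replicate had a median fold of 3.21. The highest of them, with fold 7.12 in replicate 2, was in intron 8 of Acvr1b in the Nr4a1 window. Others were a region 19.0 kb downstream of Egr1, with fold 5.75, and a region in intron 7 of Nr4a3, with fold 5.37, both in replicate 2, the library with the higher pileups.

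**Figure D4:**
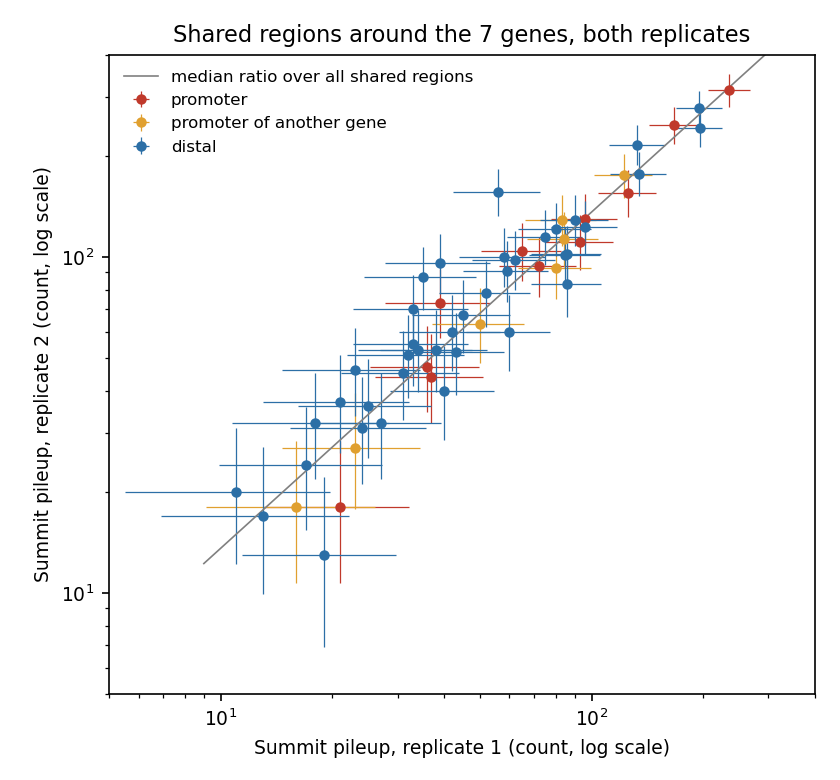
Summit pileup in replicate 1 (x axis) against replicate 2 (y axis), both as counts on log scales, for the 57 shared regions, with 95% Poisson intervals and a grey line at the median ratio of 1.36 over all shared regions. The distal region of Egr2 with 56 and 156 lies farthest above the line, and the promoter of Egr1 with 235 and 313 is at the top right.

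The motif letters were counted on both strands in RefSeq promoters (250 bases before to 50 after the start, 21262 promoters) and in 200 bases centred midway between the replicates' summits of each distal shared region. Of the 39 windows, 34 held the summits of both replicates and 5 held neither, as did 7.1% of all distal windows. A match is a description and not a bound site. The serum response element, known as the main growth factor response site of Egr promoters, was found in 1 of the 5 matched promoters, that of Egr2, and in 1.52% of all promoters. The promoters of Egr1 and Egr3 were not searched, so among EGR genes only Egr2 and Egr4 were covered. The EGR motif GCGNGGGCG was found in the promoters of Nr4a1 (60 to 52 bases before the start) and Nr4a2 (74 to 66), and in 7.52% of all. The NF-kB motif was found at Egr4 and, across the start site, at Nr4a1, and in 9.25% of all. The other motifs searched, those of the cAMP response element (TGACGTCA), AP-1, the NR4A monomer, ETS, MEF2, NFAT, GATA, RUNX and STAT, had no match in these 5 windows. The 5 promoters were rich in G and C, from 61.6% at Egr2 to 80.0% at Nr4a2 over the 250 upstream bases, against a median of 55.6% over all promoters, and the EGR letters are themselves mostly G and C.

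In the 39 distal windows the AP-1 letters TGANTCA were the most frequent, in 13 (33.3%) against 27.9% of all 31520 distal windows. They were found in 5 of 8 windows at Egr3, 3 of 10 at Egr2, 3 of 6 at Nr4a3, 1 of 5 at Egr1, 1 of 2 at Nr4a2 and none at Nr4a1 or Egr4. The NFAT letters GGAAAA were found in 8 (20.5% against 14.1%), of which 4 were at Egr2. The RUNX letters TGTGGT were also found in 8 (20.5% against 22.5%), as was the NF-kB motif (20.5% against 5.72%), of which 3 were at Nr4a3. The ETS letters CCGGAAG were found in 3 windows (7.69% against 2.29%) and the EGR letters in 2 (5.13% against 0.641%). The GATA letters TGATAA, named for the family of the Th2 factor Gata3, were found in 1 window (2.56% against 8.52%). The STAT letters TTCNNNGAA were found in 1 (2.56% against 12.5%) and the MEF2 motif in 1 (2.56% against 0.384%). The serum response element, the cAMP response element and the NR4A monomer site AAAGGTCA had no match in the 39. The NFAT and NF-kB letters can overlap, as at Nr4a3, and none of these shares was tested.

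Lists of related genes were counted in the same way, beside the 58.3% of all protein-coding genes with a promoter region. Of 15 transcription factors and cofactors downstream of antigen receptor, MAP kinase, calcium and cAMP signals, 15 had a promoter region in both replicates. Their median was 8 shared regions in the window, against 4 over all genes and 8 over the 7 genes. The most were at Nfatc2, an NFAT factor, with 19, followed by Mrtfa, a cofactor of serum response factor, and Elk3 with 13 each, and the fewest were at Mef2c with 2 and Srf, the serum response factor itself, with 3. All 6 corepressors and partners had one, with 13 regions at Hdac7, 10 at Rxra, a dimer partner of NR4A receptors, 8 each at Cabin1, Nab2 and Rxrb and 7 at Nab1, a corepressor of EGR factors. All 18 other immediate early genes had a promoter region, with a median of 10.5 regions, from 16 at Fosb and at Junb to 8 each at Btg2, Fosl2 and Gadd45b and 5 at Jun. In this list the strongest distal region exceeded the promoter by fold in both replicates at 12 of 18 genes, against 31.9% of all genes with a promoter region. It did so at 4 of the 15 factors and cofactors named first and at 4 of 6 corepressors and partners. Among genes with a promoter region it did so at 6 of 9 EGR targets and 6 of 7 genes regulated by NR4A factors, lists described below. For the markers it was 6 of 6 for Th2 and 3 of 7 for T cells, so the measure is not particular to immediate early genes. No difference from other genes was tested for any list.

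Of 11 genes known as EGR targets in T cells, 9 had a promoter region (58.3% over all genes), with a median of 9 regions in the window. The most were at Tnf with 18 and Cblb, an E3 ligase of T cell anergy, with 17, and Rnf128, another such ligase, had 4. Lag3, an inhibitory receptor, had no promoter region but 12 regions in its window, and Crtam had neither. Of 8 genes known to be regulated by NR4A factors, 7 had a promoter region, with a median of 13.5 regions. Runx1 had 24, Irf4 20 and Pdcd1, which encodes PD-1, 7, and Foxp3, the regulatory T cell factor, had 8 regions in its window and no promoter region. Windows of nearby genes overlap, so these counts include regions of neighbours.

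By width, fold and number of distal regions, each gene had a close match elsewhere in the genome, measured as the largest of 3 differences in percentile rank. The gene nearest to Nr4a3 was Cd72 (0.09 percentile points), to Nr4a1 Pan3 (0.51), to Egr4 Mthfsl (0.58), to Egr3 Nr3c1 (0.84), to Nr4a2 Pcgf1 (1.71), to Egr2 Gart (1.97) and to Egr1 Slc38a2 (2.72). None of the matches was another EGR or NR4A gene.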

How the data were processed

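ATAC-seq regions of 2 Th2 libraries were deposited as 1 list per library on mm10, each derived by the authors from 1 alignment, per the file headers. Region names carry words for masking, duplicate removal and sorting, and also ASTARR, insert and a time. These words are unexplained, and if a cloned library was sequenced the folds would measure its inserts. For the aligner, caller, transposase shift and versions, the entry is not given in the sources used here. The deposited fold (a ratio over local background), −log10 p and −log10 q are the authors'. The score column, deposited as 10 times −log10 q up to a cap, was left out.

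Regions overlapping by at least 1 bp were joined on the 21 main chromosomes and called shared when both replicates contributed. Where several regions of a replicate were joined, the highest fold was used. GENCODE M21 basic gave coding starts on GRCm38, the build of mm10, and no region ended past a chromosome. Pileup and background were recovered from fold and p under a Poisson model with a pseudocount of 1 (within 0.001 of −log10 p for 99.99% and 99.94% of regions). What the pileup counts is not stated, and intervals cover counting error only. Library depth is not stated, and median pileups were 31 and 37. Recovery and joining were tested on simulated data.

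No test was made. Percentiles are ranks among protein-coding genes, or among those with a promoter region. The text names all 7 genes, neighbours with a promoter region in a window, the 2 genes with the most and the 2 with the fewest regions per list, those without a promoter region, and the nearest gene in pattern. Genes tied with a named one were added after their values were seen. Distances are from the midpoint of the replicates' summits. Members and lists were chosen with earlier results of these data known. Alternatives were a 50% overlap, −log10 q of at least 10, windows of 20 and 100 kb, other promoter rules, each replicate alone and, chosen after seeing the data, pileup in place of fold and the same settings for the comparison of distal with promoter regions. Python 3.11.15, pandas 2.3.3, numpy 2.4.6, scipy 1.17.1 and matplotlib 3.10.9 were used.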

Additional observations from a re-analysis of the deposited data

How the results depend on the processing

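Of 61 alternative values, 49 stayed within the margin set for their kind, which was 1.5 times for a count, 1 SD between the replicates for a median and the exact interval for a share. Within that margin for counts, the shared regions still fell to 40 and the distal to 27 with −log10 q of at least 10, and the shared to 39 with windows of 20 kb. The shared regions numbered 94 in place of 57 with windows of 100 kb, and the distal regions changed from 39 to 64 with 100 kb and to 23 with 20 kb. The median promoter width of 1541 bp became 1103 bp with a 50% overlap and 1236 bp when promoters were assigned by region centre, and was 1082 to 1496 bp with a replicate left out. The median promoter fold of 8.56 became 4.61 with a 50% overlap, 6.58 by region centre, 7.45 with the outermost start only and 8.82 with −log10 q of at least 10. The 50% overlap and the centre rule split or drop the wide promoter regions of Egr2 and Egr3, and the centre rule leaves Egr3 without a promoter region (6 of 7). The share of replicate 1 regions found in replicate 2 was 82.5% with a 50% overlap and 100% with −log10 q of at least 10, against 95.2%. Shares between replicates have no value with a replicate left out. The number of genes whose strongest distal region exceeded the promoter, 4, ranged from 3 (20 kb, without Egr1) to 6 (100 kb, all but Egr2), and was 5 in each replicate alone, where Egr2 joined. No paired analysis was possible because there is 1 group. All shared regions of Egr4 had low pileups, from 13 to 21, and the part of depth in this was not tested.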
